A study of Mus musculus with 19 samples.

Results

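Cyclins and cyclin-dependent kinases (CDKs) were followed in single mouse blastocysts. The 40 genes are those of the 14173 listed genes whose symbol has the form of a cyclin (Ccn followed by a family letter from a to i, k, l, t or y) or of a CDK (Cdk and a number). Ccng1 and transcripts whose name ends in os were left out by the same rule, which used names and no measured value. The members were nonetheless chosen with earlier results of these data known. Of the 40, the names of 3 follow the pattern although they are not cyclins: Ccnb1ip1 codes for a ubiquitin ligase that binds cyclin B, Ccndbp1 for a protein that binds D cyclins, and Ccnb1-ps is a pseudogene of Ccnb1. Ccnd2 and Ccna1 were not among the listed genes and are not analysed here.

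Polyadenylated RNA was measured in 9 Padi6-mutant and 10 Control blastocysts, with 1 library per embryo. Padi6 codes for an oocyte protein of the subcortical maternal complex. The Padi6-mutant embryos came from oocytes with the Padi6P620A mutation and are described as maternal mutants in the submitters' design text, so the mutation in question is that of the mother's oocyte. The Control embryos carry no further genotype in the labels, which name no strain, litter, day or batch for either group and do not say whether the sequenced embryos had been kept in the outgrowth culture described for blastocysts of the study. If embryos of 1 group shared a litter, p-values computed over embryos are too small.

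A cyclin has no catalytic activity of its own: it binds a CDK, opens its active site and helps choose its substrates. D cyclins with Cdk4 or Cdk6 act in G1, E cyclins with Cdk2 at the entry into S phase, cyclin A with Cdk2 and Cdk1 through S and G2, and B cyclins with Cdk1 in mitosis, while other members of both families work in transcription. In the mouse, embryos without Cdk1 stop in the first cleavage divisions, whereas embryos without Cdk2, Cdk4 or Cdk6 pass through preimplantation development.

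Values are log2(scaled count + 1), where the scaled counts are the authors' upper-quartile normalised counts rounded to whole numbers, and every level or difference below is on that log2 scale. Differences are Padi6-mutant minus Control from limma, fitted over all 14173 genes with Benjamini-Hochberg adjustment, and a gene passed the test at an adjusted p under 0.05. Padi6 itself ran from 2.00 to 9.27 (median 6.48) in Padi6-mutant embryos and from 3.81 to 9.24 (median 6.48) in Control embryos, a level that does not report on a substitution carried by the oocyte. The Padi6-mutant libraries listed 312 ± 191 genes at 0 and the Control libraries 117 ± 76.2 (SD, n = 9 and 10, two-sided exact permutation p = 0.00890), and 4 Padi6-mutant embryos (6, 8, 9 and 10) had over 400. The counts were scaled before deposit, so that their sums do not give the depth of a library. Absolute depth could not be settled from the values and is treated as unknown. The spacing of low values gave a scale factor of 1.37 to 3.84 in 8 Padi6-mutant libraries. In 5 Control libraries it was 1.07 to 1.61, and the other libraries gave none. Padi6-mutant counts with a known factor were thus mostly scaled up more, and what this does to the results was not tested. Among blastocyst markers, all 3 of primitive endoderm (Gata6, Pdgfra, Sox17) and 1 of 3 of the inner cell mass (Pou5f1, by -1.26) were lower in Padi6-mutant embryos, 0 of 4 of trophectoderm (Cdx2, Krt8, Krt18, Gata3) passed the test, and 0 of 7 of cumulus and granulosa cells were listed. The summed level of the primitive endoderm markers ran from 13.06 to 13.70 in Padi6-mutant embryos and from 13.16 to 15.18 in Control embryos, and that of the inner cell mass markers from 13.36 to 14.97 in Padi6-mutant embryos, of which 1 had Sox2 at 0, and from 14.42 to 15.70 in Control embryos. Without the 4 embryos named above, 1 of the 3 primitive endoderm markers was lower (median -0.97, against -2.51 with them), and 0 of 3 passed with the detected gene number as a covariate (-0.72) or the length and GC trends removed (-2.33). The median of the inner cell mass markers was -0.93, the value of Sox2, and 0.21 without the 4 embryos and 0.23 with the covariate. Of these 3 markers, 1 was still lower without the 4 embryos and 0 passed with the covariate. With the length and GC trends removed 1 was lower (median -0.82). In whole embryos, fewer cells of a type and less RNA per cell cannot be told apart, and the part of cell makeup, depth and undetected genes in the results below was not tested beyond the values given with them.

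Of the 40 genes, 9 passed the test (22.5%), against 26.6% of all 14173 listed genes. Higher in Padi6-mutant embryos were 3, namely Ccne2, Ccnh and Ccng2 (7.5%, against 14.6% of all genes). Lower were 6, namely Ccnd3, Cdk2, Cdk9, Cdk16, Cdk19 and Ccny (15%, against 12% of all genes). The share of cyclin and CDK genes that passed was thus near that of the listed genes as a whole. The median difference was -0.11 over the 40 genes and -0.10 over all genes, and 17 of the 40 differences were positive and 23 negative. In 0 of the 40 genes were the groups fully apart. This count was not made over all genes, so it does not set the 40 apart from other genes. At an unadjusted p under 0.05 there were 15 of the 40 genes and 5460 of all genes.

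**Figure D1:**
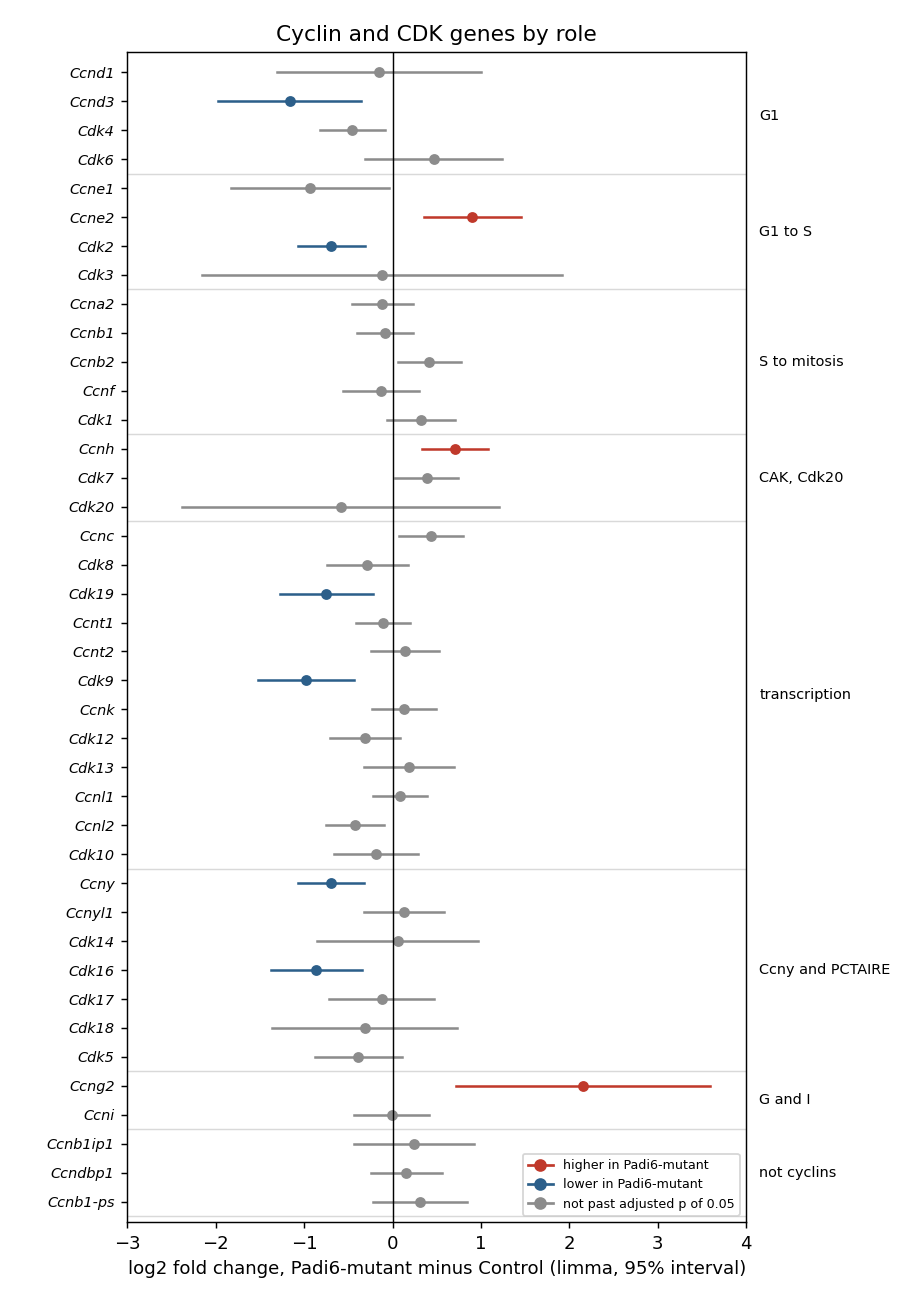
Log2 differences between Padi6-mutant and Control embryos (x axis, limma estimate with its 95% interval) for the 40 genes in rows by role, in red where higher in Padi6-mutant embryos, in blue where lower and in grey where the adjusted p was not under 0.05. The 5 genes of S phase to mitosis sit between -0.13 and 0.42 and none of them passed, while Ccng2 at 2.16 has the widest interval among the 9 genes that passed.

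Levels of the members can be compared with each other only per length of transcript. After division by transcript length in kilobases, Ccnb1 was the most abundant of the 39 members with a known length in both groups, at a mean log2 level of 13.38 in Padi6-mutant embryos and 13.47 in Control embryos, followed by Cdk1 at 13.12 in Padi6-mutant embryos and 12.80 in Control embryos. Ccnb2 stood at 12.75 in Padi6-mutant embryos, above Cdk4 at 11.96, while in Control embryos Ccnb2 was at 12.34 and Cdk4 at 12.42. Ccnd3 was at 10.89 in Padi6-mutant embryos, below Ccna2 at 11.54 and Cdk2 at 11.20, while in Control embryos Ccnd3 was at 12.06, Cdk2 at 11.90 and Ccna2 at 11.66. The lowest were Cdk20 and Ccnd1 in Padi6-mutant embryos, at 4.35 and 5.37, and Ccng2 and Cdk20 in Control embryos, at 4.14 and 4.93. By level without the length correction, 32 of the 40 members lay above the median listed gene.

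The first to act in the cycle are the D cyclins and their kinases, of which 1 of 4 passed the test, beside 26.6% of all genes. Ccnd3, a D cyclin that links outside signals to Cdk4 and Cdk6, was lower in Padi6-mutant embryos. It ran from 10.56 to 13.46 (median 11.52) in Padi6-mutant embryos and from 11.90 to 14.66 (median 12.92) in Control embryos. The ranges overlapped, with 7 of 9 Padi6-mutant embryos below the Control median. The difference was -1.17 ± 0.39 (SE, limma adjusted p = 0.0310). This call was lost when any 1 of Control embryos 1, 2, 3 or 6 or of Padi6-mutant embryos 2, 7, 8 or 10 was left out, with a highest adjusted p of 0.0611 in limma.

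Ccnd1, the D cyclin best known as a target of growth factor signals, ran from 5.29 to 9.41 (median 7.10) in Padi6-mutant embryos and from 5.29 to 9.32 (median 7.53) in Control embryos. The groups covered nearly the same range, and the difference of -0.15 ± 0.56 had a limma adjusted p of 0.865. Cdk4, a kinase that phosphorylates the retinoblastoma protein, ran from 12.32 to 13.51 (median 13.04) in Padi6-mutant embryos and from 13.09 to 14.09 (median 13.35) in Control embryos. Its difference of -0.45 ± 0.18 missed the threshold (limma adjusted p = 0.0619), with 7 of 9 Padi6-mutant embryos below the Control median. It passed as lower after quantile normalisation (-0.58, limma adjusted p = 0.0132) and with quality weights per library (-0.45, limma adjusted p = 0.0304). Cdk6, which shares the D cyclins with Cdk4, ran from 8.08 to 9.73 (median 9.05) in Padi6-mutant embryos and from 6.75 to 10.09 (median 8.38) in Control embryos, and its difference was 0.47 ± 0.38 (limma adjusted p = 0.378). Its Padi6-mutant values lay inside the Control range.

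At the entry into S phase the E cyclins lay on opposite sides of 0. Ccne2, an E cyclin that activates Cdk2, was higher in Padi6-mutant embryos, at 9.10 to 10.79 (median 10.08) against 8.05 to 9.94 (median 8.86) in Control embryos. All 9 Padi6-mutant embryos lay above the Control median, although the ranges overlapped. The difference was 0.90 ± 0.26 (SE, limma adjusted p = 0.0140). Ccne1, its paralog with the same kinase partner, ran from 7.77 to 11.88 (median 10.19) in Padi6-mutant embryos and from 9.95 to 12.40 (median 11.53) in Control embryos. The low end came from Padi6-mutant embryo 9, and 7 of 9 Padi6-mutant embryos were below the Control median. The difference of -0.94 ± 0.43 missed the threshold (limma adjusted p = 0.110), and passed it with the embryo number as a block (-0.91, limma adjusted p = 0.0453) and with quality weights (-1.19, limma adjusted p = 0.0153).

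Cdk2, the kinase of cyclins E and A, was lower in Padi6-mutant embryos. It ran from 11.49 to 12.74 (median 12.53) in Padi6-mutant embryos and from 12.24 to 13.60 (median 13.14) in Control embryos. All 9 Padi6-mutant embryos were below the Control median, and the difference was -0.69 ± 0.18 (SE, limma adjusted p = 0.00772). Cdk3, a close relative of Cdk2, was listed at 0 in Padi6-mutant embryo 10 and in Control embryos 5 and 9. Among its other values, Padi6-mutant embryos reached 6.51 and Control embryos 7.12, and the difference was -0.12 ± 0.98 (limma adjusted p = 0.946).

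Of the genes of S phase to mitosis 0 of 5 passed the test, beside 26.6% of all genes. Ccna2, the somatic cyclin A, ran from 12.72 to 14.04 (median 13.12) in Padi6-mutant embryos and from 12.56 to 13.69 (median 13.27) in Control embryos, with a difference of -0.12 ± 0.17 (95% interval -0.46 to 0.23, limma adjusted p = 0.639). Ccnb1, the main B cyclin of mitotic entry, ran from 14.16 to 15.02 (median 14.70) in Padi6-mutant embryos and from 14.38 to 15.31 (median 14.75) in Control embryos. Its difference was -0.09 ± 0.15 (95% interval -0.40 to 0.23, limma adjusted p = 0.704). After quantile normalisation of the same values Ccnb1 passed the test as lower (-0.48, limma adjusted p = 0.0412), so that its standing depended on the scaling. With quality weights per library, Ccnb2 (0.51, limma adjusted p = 0.0168) and Cdk1 (0.43, limma adjusted p = 0.0492) passed as higher.

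Ccnb2, the second B cyclin, ran from 12.71 to 13.99 (median 13.42) in Padi6-mutant embryos and from 12.61 to 13.41 (median 12.84) in Control embryos. More of its Padi6-mutant values were high, 7 of 9 above the Control median, and the difference of 0.42 ± 0.17 (95% interval 0.06 to 0.77) missed the threshold (limma adjusted p = 0.0778). Cdk1, the kinase of mitosis, ran from 12.93 to 14.11 (median 13.43) in Padi6-mutant embryos and from 12.19 to 13.89 (median 13.09) in Control embryos. Of its 9 Padi6-mutant values 8 exceeded the Control median, with a difference of 0.32 ± 0.18 (limma adjusted p = 0.205). Ccnf, an F-box protein that carries a cyclin fold but marks substrates for destruction, differed by -0.13 ± 0.21 (limma adjusted p = 0.676).

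**Figure D2:**
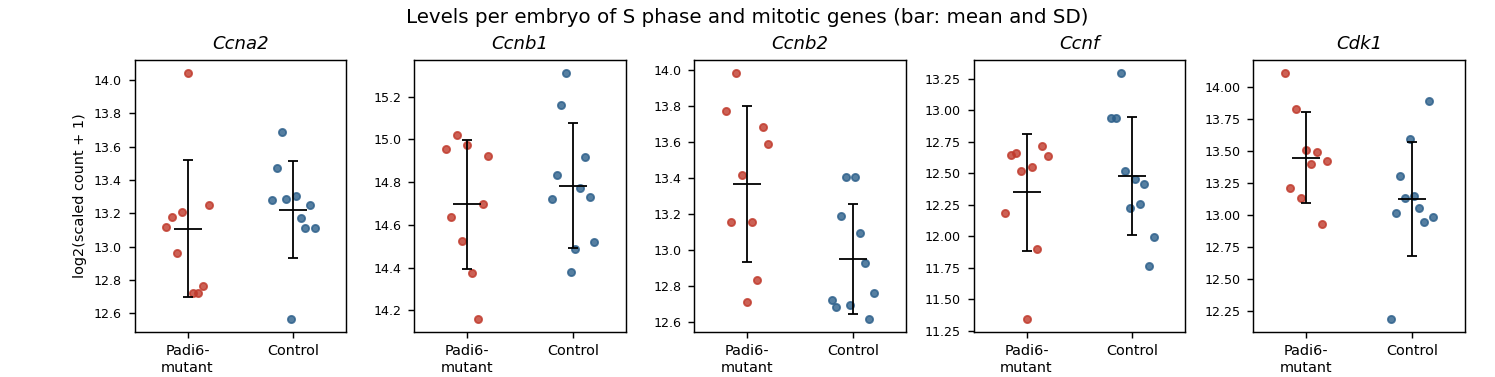
Log2(scaled count + 1) of the 5 genes of S phase to mitosis (y axis, each panel with its own scale) in each of 9 Padi6-mutant and 10 Control embryos, with the mean and SD as a bar. The groups overlap in all 5 panels, and Ccnb2 and Cdk1 have most of their Padi6-mutant points above the Control median.

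Ratios of related genes within 1 embryo do not move with the scale factor of its library, and 11 such ratios were compared between the groups by two-sided exact permutation over all 92378 splits of the 19 embryos, with Benjamini-Hochberg adjustment over the 11. Only the difference between groups was read, since a ratio of 2 genes also carries their lengths. Ratios of other gene pairs were not tested, so the number that passed has no background to be set against. The log2 ratio of Ccne1 to Ccne2 was 0.39 ± 1.26 in Padi6-mutant embryos and 2.23 ± 1.12 in Control embryos (SD, n = 9 and 10), a difference of -1.84 (exact permutation, adjusted p = 0.0206). Both groups spread widely, at -1.83 to 2.20 in Padi6-mutant embryos and 0.44 to 4.05 in Control embryos. The log2 ratio of Cdk1 to Cdk2 was 1.08 ± 0.49 in Padi6-mutant embryos and 0.07 ± 0.77 in Control embryos, a difference of 1.02 (exact permutation, adjusted p = 0.0206).

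The log2 ratio of Ccnb1 to Ccnb2 was 1.33 ± 0.38 in Padi6-mutant embryos and 1.83 ± 0.31 in Control embryos. The B cyclins thus stood nearer to each other in Padi6-mutant embryos, by a difference of -0.50 (exact permutation, adjusted p = 0.0288), although neither passed the test alone. Left out 1 at a time, Control embryo 2 and Padi6-mutant embryos 4, 5 and 9 each decided this call. Smaller shifts were found for Cdk8 to Cdk19, with a log2 ratio of 1.01 ± 0.40 in Padi6-mutant embryos and 0.55 ± 0.34 in Control embryos (exact permutation, adjusted p = 0.0400), and for Cdk12 to Cdk13, at -0.11 ± 0.58 in Padi6-mutant embryos and 0.38 ± 0.29 in Control embryos (exact permutation, adjusted p = 0.0473). These calls were lost without 1 library in 10 and in 15 of 19 cases. After removal of the trend with transcript length and GC content, the ratio of Ccne1 to Ccne2 alone passed (-1.64, exact permutation, adjusted p = 0.00286), and Cdk1 to Cdk2 fell to a difference of 0.47 (exact permutation, adjusted p = 0.0835). Cdk8 to Cdk19, at 0.48, and Cdk12 to Cdk13, at -0.66, then had differences as large as before or larger, and that of Ccnb1 to Ccnb2 was -0.36. Without Padi6-mutant embryos 6, 8, 9 and 10, which had the most genes at 0, Ccnb1 to Ccnb2 alone passed (-0.63, exact permutation, adjusted p = 0.0366). With these 4 libraries fewer, the differences were 0.93 for Cdk1 to Cdk2, -1.41 for Ccne1 to Ccne2, 0.38 for Cdk8 to Cdk19 and -0.27 for Cdk12 to Cdk13.

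The other 6 ratios did not pass. The ratio of Ccnl1 to Ccnl2 differed by 0.51 (exact permutation, adjusted p = 0.0507) and that of Cdk4 to Cdk6 by -0.92 (adjusted p = 0.0641). Those of Cdk7 to Ccnh, Ccnd1 to Ccnd3 and Ccnt1 to Ccnt2 differed by -0.32, 1.01 and -0.25. The ratio of Ccna2 to Ccnb1, cyclins that work in sequence, differed by -0.03 (exact permutation, adjusted p = 0.837).

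**Figure D3:**
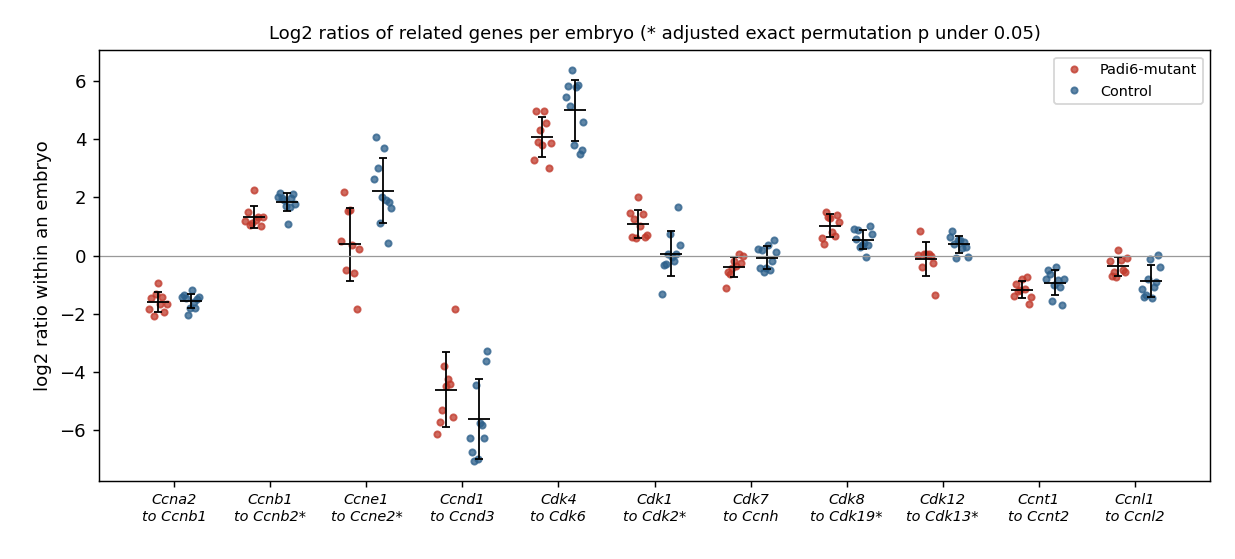
Log2 ratio of 2 related genes within an embryo (y axis) for 11 pairs (x axis), with 1 point per embryo, Padi6-mutant left of Control in each pair, and the mean and SD as a bar. The Ccne1 to Ccne2 ratio has the largest shift among the 5 starred pairs, at 0.39 in Padi6-mutant and 2.23 in Control embryos, and the points of the groups overlap in every pair.

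The start regions of the 4 genes in the B cyclin and Cdk1 to Cdk2 ratios are shown because genes of mitosis are known for CCAAT boxes and a cell cycle genes homology region (CHR) near their start, and genes of S phase for E2F elements. Each window holds the 250 bases before the start site and the first 50 bases of the RefSeq gene model on build GRCm38.p6, an older build than the one named for the reads, read 5′ to 3′ on the gene's own strand. Capitals mark CCAAT (or ATTGG), the CHR letters TTTGAA (or TTCAAA) and the E2F letters TTTCCCGC (or GCGGGAAA), searched on both strands. The windows are chr13:100786437-100786736 for Ccnb1, chr9:70421505-70421804 for Ccnb2, chr10:69352863-69353162 for Cdk1 and chr10:128705002-128705301 for Cdk2, all on the minus strand.
Ccnb1: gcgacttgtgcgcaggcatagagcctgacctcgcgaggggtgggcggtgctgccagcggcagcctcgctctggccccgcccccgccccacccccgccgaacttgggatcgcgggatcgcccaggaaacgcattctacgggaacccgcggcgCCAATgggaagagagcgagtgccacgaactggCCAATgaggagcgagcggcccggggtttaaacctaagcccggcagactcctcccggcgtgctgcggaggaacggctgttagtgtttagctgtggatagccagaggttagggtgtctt
Ccnb2: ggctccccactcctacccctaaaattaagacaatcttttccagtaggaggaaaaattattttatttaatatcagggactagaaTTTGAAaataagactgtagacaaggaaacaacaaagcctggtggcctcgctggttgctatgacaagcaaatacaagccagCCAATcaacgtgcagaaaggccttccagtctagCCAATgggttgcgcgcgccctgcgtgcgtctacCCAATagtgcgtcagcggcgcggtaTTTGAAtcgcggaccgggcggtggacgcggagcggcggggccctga
Cdk1: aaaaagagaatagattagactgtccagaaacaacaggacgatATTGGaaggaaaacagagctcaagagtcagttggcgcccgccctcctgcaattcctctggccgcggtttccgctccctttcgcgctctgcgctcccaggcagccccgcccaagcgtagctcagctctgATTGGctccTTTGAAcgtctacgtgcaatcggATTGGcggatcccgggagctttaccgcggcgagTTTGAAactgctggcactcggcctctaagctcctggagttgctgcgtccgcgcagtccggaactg
Cdk2: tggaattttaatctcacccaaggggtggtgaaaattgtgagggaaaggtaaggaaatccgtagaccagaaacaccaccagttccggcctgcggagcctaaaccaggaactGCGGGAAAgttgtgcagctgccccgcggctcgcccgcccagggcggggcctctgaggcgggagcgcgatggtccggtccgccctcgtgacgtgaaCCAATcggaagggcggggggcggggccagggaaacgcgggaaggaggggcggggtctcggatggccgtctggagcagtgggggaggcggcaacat

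Ccnb2 held 3 CCAAT boxes, at 87, 54 and 21 bases before the start, and 2 CHR matches, the nearer of them within the first bases of the transcript. Cdk1 held 3 CCAAT boxes on the opposite strand and CHR matches 71 and 15 bases before the start. Ccnb1 held 2 CCAAT boxes and no match to these CHR letters. Cdk2 held 1 CCAAT box and 1 E2F match on the opposite strand, 140 bases before the start. Across all 32851 windows of the same length, 37.4% held CCAAT, 17.9% the CHR letters and 1.07% these E2F letters, while of the 32 windows found for 30 of the members 15, 5 and 1 did. Another E2F form, TTTGGCGC, was in 0.514% of all windows and in 0 of the 32, and the forkhead letters GTAAACA were in 3.65% and in 2. The matches describe the letters and no binding was measured.

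The CDK-activating kinase, made of Cdk7, cyclin H and the assembly factor Mnat1, phosphorylates the other CDKs and is also part of the general transcription factor TFIIH. Ccnh was higher in Padi6-mutant embryos, at 11.67 to 12.41 (median 12.13) against 10.40 to 12.13 (median 11.37) in Control embryos. All 9 Padi6-mutant embryos lay above the Control median, and Ccnh was the least spread of the 9 genes that passed in Padi6-mutant embryos, with an SD of 0.21. The difference was 0.70 ± 0.18 (SE, limma adjusted p = 0.00598), and it stayed past the threshold under all 29 alternatives that were run. Mnat1 was higher as well, by 0.87 ± 0.24 (limma adjusted p = 0.00862). Cdk7 had a difference of 0.39 ± 0.17 that missed the threshold (limma adjusted p = 0.101), and 8 of 9 Padi6-mutant embryos exceeded the Control median. Cdk20, named for cell cycle functions, was scattered at 1.58 to 8.45 in Padi6-mutant embryos and 2.81 to 8.41 in Control embryos, with a limma adjusted p of 0.648.

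Of 12 cyclins and CDKs of transcription, 0 were higher and 2 lower, beside 14.6% higher and 12% lower of all genes. Cdk9, the kinase of the elongation factor P-TEFb that phosphorylates RNA polymerase II, was lower in Padi6-mutant embryos, at 8.58 to 10.48 (median 9.65) against 9.60 to 11.19 (median 10.57) in Control embryos. All 9 Padi6-mutant embryos were below the Control median, with a difference of -0.98 ± 0.26 (SE, limma adjusted p = 0.00780). Its cyclins Ccnt1 and Ccnt2 differed by -0.11 ± 0.15 and 0.14 ± 0.19 (limma adjusted p = 0.616 and 0.608).

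Cdk19, a kinase of the Mediator module that bridges transcription factors and the polymerase, was lower at 8.74 to 9.94 (median 9.51) in Padi6-mutant embryos against 9.24 to 11.23 (median 10.33) in Control embryos. It too was below the Control median in all 9 Padi6-mutant embryos (-0.75 ± 0.25, limma adjusted p = 0.0318). The call for Cdk19 was lost without Control embryo 4 or 8 or Padi6-mutant embryo 4 or 5, with a highest limma adjusted p of 0.0656. Its paralog Cdk8 differed by -0.28 ± 0.22 (limma adjusted p = 0.359), and their shared cyclin Ccnc by 0.43 ± 0.18 (limma adjusted p = 0.0714). All 9 Padi6-mutant values of Ccnc exceeded the Control median, the other way from both kinases.

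Cyclin K, Cdk12 and Cdk13, which act on elongating polymerase, did not pass the test, with differences of 0.13, -0.31 and 0.18. The splicing-linked cyclins Ccnl1 and Ccnl2 differed by 0.08 and -0.42. Ccnl2 came closest to the threshold of all members that missed it (limma adjusted p = 0.0508) and lay below the Control median in all 9 Padi6-mutant embryos. Cdk10, a kinase of the cyclin Ccnq, differed by -0.19.

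Cyclin Y and the PCTAIRE and PFTAIRE kinases form a branch in which the cyclin sits at the plasma membrane and activates Cdk14 and Cdk16. Ccny was lower in Padi6-mutant embryos, at 9.86 to 11.14 (median 10.47) against 10.64 to 11.62 (median 11.21) in Control embryos, a difference of -0.70 ± 0.18 (SE, limma adjusted p = 0.00577). Cdk16 was lower too, at 11.59 to 13.12 (median 12.58) in Padi6-mutant embryos against 12.24 to 14.38 (median 13.39) in Control embryos, a difference of -0.86 ± 0.25 (SE, limma adjusted p = 0.0127). For both genes all 9 Padi6-mutant embryos were below the Control median and the ranges overlapped. The other 5 of the branch did not pass: Ccnyl1, a paralog of Ccny, differed by 0.13, Cdk14 by 0.06, Cdk17 by -0.12, Cdk18 by -0.31 and Cdk5, a kinase that uses partners other than cyclins, by -0.39. Cdk14 was wide in Padi6-mutant embryos, at 7.99 to 12.76.

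Ccng2, an unusual cyclin linked to growth arrest, had the largest difference of the 40 genes. It was 7.11, 6.86, 6.66, 6.32, 6.73, 8.52, 8.44, 9.08 and 9.23 in Padi6-mutant embryos 2 to 10, and 7.07, 5.21, 5.00, 7.97, 4.58, 7.46, 1.00, 5.43, 5.43 and 5.88 in Control embryos 1 to 10. All 9 Padi6-mutant embryos lay above the Control median of 5.43, and Control embryo 7 stood far below the rest. The difference was 2.16 ± 0.69 (SE, limma adjusted p = 0.0248), and with any 1 embryo left out it ran from 1.66 to 2.43 and stayed past the threshold. The call was lost with the detected gene number as a covariate (1.48, limma adjusted p = 0.270) and without Padi6-mutant embryos 6, 8, 9 and 10. Ccng2 was a low gene, at percentile 22.6 of the listed genes by mean level. Ccni, of the cyclin I family, differed by -0.01 (limma adjusted p = 0.980).

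**Figure D4:**
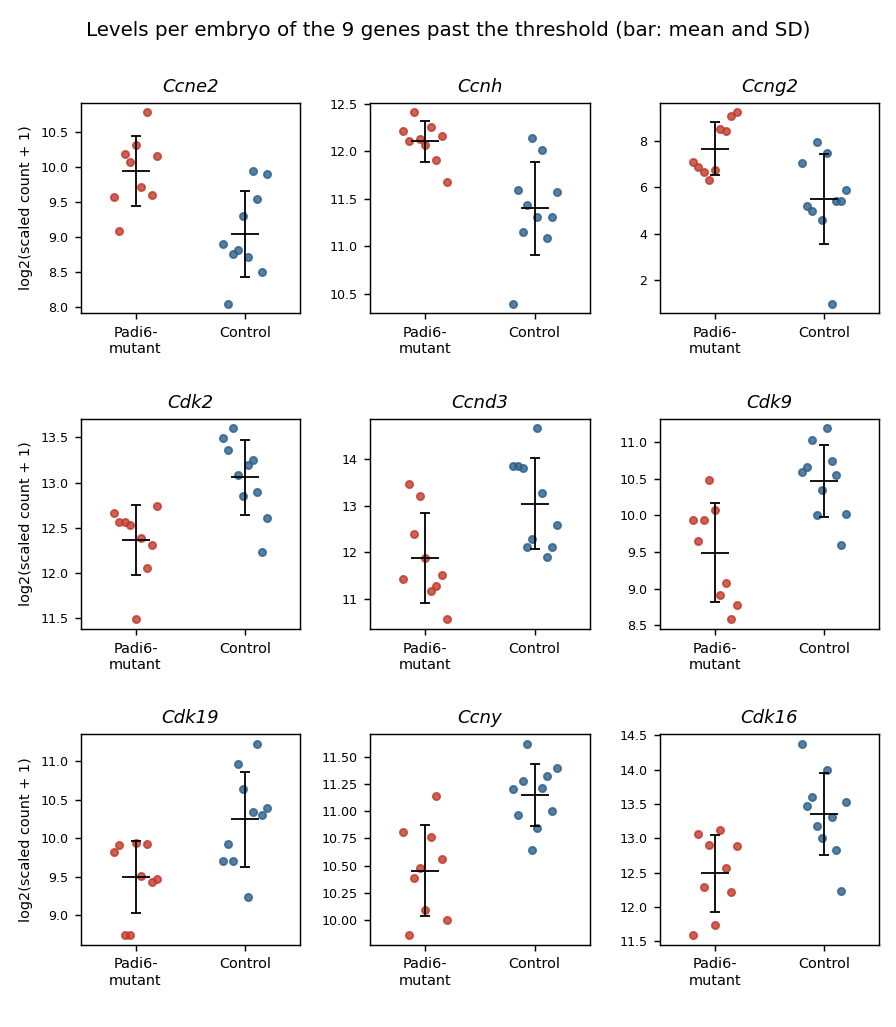
Log2(scaled count + 1) per embryo (y axis, each panel with its own scale) of the 9 genes that passed the test, in 9 Padi6-mutant and 10 Control embryos, with the mean and SD as a bar. The groups overlap in every panel, and the single low Control point of Ccng2 is embryo 7 at 1.00.

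The 3 members that are not cyclins did not pass: Ccnb1ip1 differed by 0.24, Ccndbp1 by 0.16 and the pseudogene Ccnb1-ps by 0.31. Because Ccnb1-ps is a near copy of Ccnb1, reads could be split between them in counting, and the values of both are uncertain to that extent. Strand use in counting is not given in the sources used here, so members that overlap a gene on the opposite strand may hold reads of that neighbour. Among them, Ccnd1 shared 1100 bases (with LTO1), Cdk4 641 (with Tspan31) and Ccne2 609 (with Ints8). Ccna2 shared 510 (with Exosc9) and Ccnd3 361 (with Bysl). The overlap was 34 bases for Cdk2 (with Pmel) and 12 for Ccnh (with Rasa1).

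The direction of the 9 calls went with base composition. The 3 higher genes had transcripts with 35.1% to 43.5% GC (median 38.7%) and the 6 lower genes 44.3% to 59.7% (median 52.2%). Over all genes with a known transcript, 13.4% were higher and 4.72% lower in Padi6-mutant embryos in the fifth with the lowest GC, against 11.2% higher and 18.0% lower in the fifth with the highest GC. After the trends with length and GC content were removed from each library, 7 of the 9 genes still passed and Ccnd3 (-0.77, limma adjusted p = 0.0534) and Cdk16 (-0.45, limma adjusted p = 0.0680) did not, while Ccnc passed as higher (0.43, limma adjusted p = 0.0353). The counts were then 4 higher and 4 lower of 39, against 10.6% higher and 10.2% lower of all genes tested that way.

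**Figure D5:**
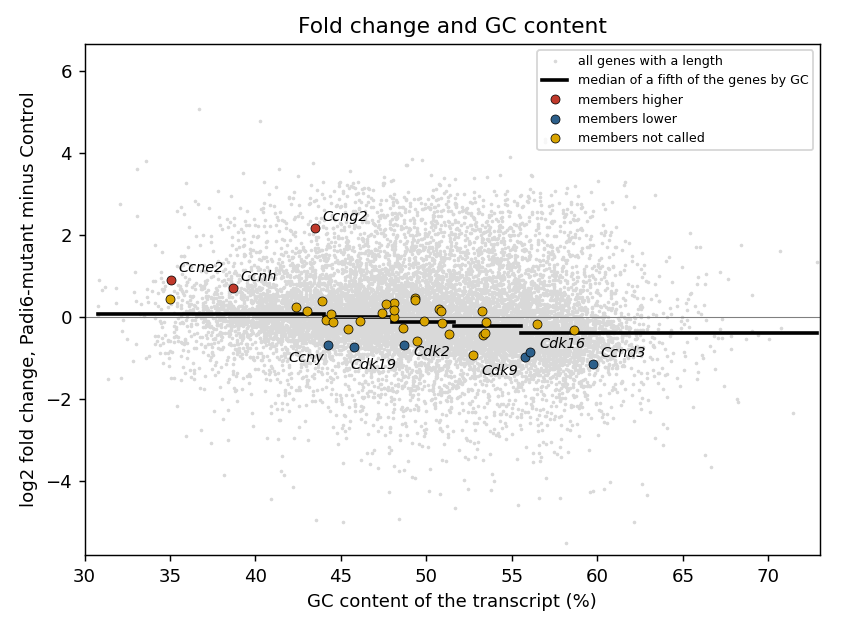
Log2 difference between Padi6-mutant and Control embryos (y axis) against the GC content of the transcript (x axis, %), with all genes of known transcript in light grey, the median of 5 equal groups of genes by GC as black lines and the cyclin and CDK genes as larger points coloured by call. The 3 higher members lie at 35.1% to 43.5% GC and the 6 lower ones at 44.3% to 59.7%.

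Fewer members passed once Padi6-mutant embryos 6, 8, 9 and 10, each with more than 400 genes at 0, were left out. Then 2 of the 40 genes passed, Ccnh (0.82, limma adjusted p = 0.0153) and Ccny (-0.69, limma adjusted p = 0.0213), against 18.5% of all genes. The differences of the other 7 kept their sign, at 0.69 for Ccne2, 1.59 for Ccng2, -0.71 for Ccnd3, -0.52 for Cdk2, -0.69 for Cdk9, -0.76 for Cdk16 and -0.90 for Cdk19. With the detected gene number of each library as a covariate, Ccnh (0.81, limma adjusted p = 0.0188) and Cdk19 (-1.06, limma adjusted p = 0.0197) passed, against 12.7% of all genes. Ccnd3 was then at -0.43, Cdk2 at -0.38, Cdk9 at -0.61, Cdk16 at -0.55 and Ccny at -0.65. Ccne2 was at 0.68 and Ccng2 at 1.48. The limma adjusted p of these genes ran from 0.0569 (Ccny) to 0.542 (Ccnd3). With the embryo number as a block 9 of the 40 genes passed, against 17.8% of all genes, with quantile normalisation 12, against 28% of all genes, and with quality weights per library 15, against 37.7% of all genes. Of all genes tested with the length and GC trends removed, 20.8% passed.

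Lists of genes around the CDKs are set here beside the 14.6% higher, 12% lower and median difference of -0.10 over all genes. The lists were chosen with earlier results of these data known, so their counts describe and do not test. Among the regulators of CDKs, the small Cks proteins and the assembly factors had 3 of 4 higher and 1 lower, with a median difference of 1.42. Cks2, a small subunit that docks CDKs on phosphorylated substrates, ran from 13.70 to 15.65 (median 14.21) in Padi6-mutant embryos and from 10.90 to 14.15 (median 11.96) in Control embryos. Its difference was 2.29 ± 0.36 (SE, limma adjusted p = 6.02e-05). Cks1b, its paralog, was higher by 1.97 ± 0.34 (limma adjusted p = 1.50e-04). Cdc37, a chaperone partner that helps kinases such as Cdk4 fold, was lower by -0.60 (limma adjusted p = 0.0293), a call lost without Control embryo 1, 2, 3 or 6 or Padi6-mutant embryo 8. After the length and GC trends were removed, 3 of the list were higher and 0 lower, and its median was 0.89.

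Of 8 CDK inhibitors and related genes, 6 were listed, of which 3 were higher and 0 lower. Cdkn1a, the inhibitor p21 that halts the cycle downstream of p53, ran from 12.15 to 13.92 (median 13.17) in Padi6-mutant embryos and from 10.29 to 12.80 (median 11.42) in Control embryos, with a difference of 1.39 ± 0.32 (SE, limma adjusted p = 0.00255). Cdkn3, a phosphatase that acts on CDKs, was higher by 1.55 ± 0.31 (limma adjusted p = 6.33e-04), and Cdkn1b, the inhibitor p27, by 0.96 ± 0.36 (limma adjusted p = 0.0493). The call for Cdkn1b was lost in 14 of 19 fits with 1 library left out (highest limma adjusted p = 0.108), with the embryo number as a block (0.0819) and after quantile normalisation (0.0578). All 9 Padi6-mutant embryos lay above the Control median for Cdkn1a, and the ranges overlapped. After the length and GC trends were removed, 0 of the 6 passed, and the median of the list was 0.56 against 0.61 before. The earlier median lay between Cdkn2d (0.27) and Cdkn1b, so the medians do not show how far Cdkn1a and Cdkn3 moved. With the detected gene number as a covariate, or without Padi6-mutant embryos 6, 8, 9 and 10, 2 were higher and 0 lower. Cks2, Cks1b, Cdkn3 and Cdkn1a have short transcripts, of 692, 849, 917 and 922 bases.

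The kinases and phosphatases that set the inhibitory phosphate on CDKs had 0 of 5 past the test and a median difference of -0.21. Wee1, which adds that phosphate, differed by -0.21, and Cdc25a, which removes it, by 0.00. Of 13 pocket proteins and E2F factors, which hold or drive the genes of S phase, 1 was higher and 2 lower, with a median of -0.13. The E2F partner Tfdp1 differed by -0.89 ± 0.15 (limma adjusted p = 1.42e-04), its paralog Tfdp2 by 0.68 and E2f4, an E2F that acts mostly as a repressor, by -1.42. Of 6 ubiquitin ligase adaptors that end the life of cyclins and their inhibitors, 1 was higher (Fbxw7, which marks cyclin E, 0.76) and 2 were lower (Btrc, -0.58, and Skp2, which marks p27, -0.72), and the median was -0.45. With the detected gene number as a covariate 0 of these 6 passed. Without Padi6-mutant embryos 6, 8, 9 and 10, 0 of them were higher and 2 lower. The pocket protein and E2F list had 1 higher and 1 lower with the covariate, and 1 higher and 2 lower without those embryos.

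Of 8 mitotic kinases and checkpoint genes, 1 was higher and 0 lower, with a median of -0.29. The gene was Birc5, the survivin subunit of the complex that holds Aurora B (0.75, limma adjusted p = 0.0300), and it was at -0.02 once the length and GC trends were removed. With the detected gene number as a covariate, or without Padi6-mutant embryos 6, 8, 9 and 10, 0 of the 8 passed. Of 7 partners of the transcriptional CDKs, 1 was higher and 4 were lower, with a median of -0.50. Larp7, which stabilises the RNA that keeps P-TEFb inactive, was higher by 1.14, whereas Hexim1, the inhibitor in that same complex, was lower by -0.88. Med12, which holds cyclin C and Cdk8 in Mediator, was lower by -1.03, and Aff4, a scaffold of P-TEFb, by -0.79. Of 5 listed binders other than cyclins (of 6), Cdk2ap2, a binding protein of Cdk2 by name, was higher by 0.93 and the median was 0.57. With that covariate or without those embryos, 0 of the 5 passed, and of the 7 partners 1 was higher and 3 lower. Of 5 listed cyclin-fold genes outside the naming rule (of 7), 0 passed and the median was -0.25, with Ccnq at 0.15 and Ccnj at -0.04.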

How the data were processed

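Single-blastocyst libraries were made per the labels' protocols by separating RNA from DNA, template switching on oligo-dT beads, PCR and Nextera XT, with 20 libraries pooled, of which 19 are analysed here. Trim Galore 0.4.4, HISAT2 2.1.0 and build GRCm39 are named in the submitters' processing notes, while the counting tool, annotation and strand setting are not given in the sources used here. The deposited table holds log2 values per gene. The file name and the values show them to be log2 of upper-quartile scaled counts plus 1 (within 1.96e-07 of whole numbers once taken back). No unscaled count entered a test. No pair of libraries held the same values (highest Spearman rho 0.972).

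Groups came from the genotype label. limma 3.58.1 in R 4.3.3 (lmFit, eBayes with a trend) was run over all 14173 genes and first tested on simulated data. Ratios were tested by exact permutation in Python 3.11.15. Lengths and GC came from a GENCODE annotation of GRCm38 for 94.2% of genes, and promoter windows from RefSeq. Levels are given for Ccna2, Ccnb1, Ccnb2, Ccnd1, Ccnd3, Ccne1, Ccne2, Cdk1, Cdk2, Cdk4, Cdk6 and every member past 0.05, other members by difference or range, and up to 4 genes of each list past 0.05 (otherwise the 2 highest in level). Members and lists were chosen with earlier results of these data known. Alternatives were the embryo number as a block, no trend, quantile or median scaling, a pseudocount of 8, genes above the median level, library quality weights, detected genes as a covariate, removal of length and GC trends (lowess span 0.3), leaving out 4 libraries with over 400 genes at 0, and leaving out each library. The numbers shared by embryos of both groups do not pair them in the labels.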

Additional observations from a re-analysis of the deposited data

Results flagged for a closer look

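In 9 cases a single embryo stood apart from the rest of its group in 1 of the 40 genes, in that its gap to the nearest embryo took up more of the group's range than Dixon's 95% limit allows. Padi6-mutant embryo 6 and Control embryos 7 and 9 did so in 2 genes each. Chance gives such an embryo in about 1 of 20 groups, and 40 genes were looked at in each of both groups. Ccna2 was at 14.04 in Padi6-mutant embryo 6, where the others of that group ran from 12.72 to 13.25, and at 12.56 in Control embryo 5, where the others ran from 13.11 to 13.69. Cdk7 was at 11.11 in Padi6-mutant embryo 2, below the 11.56 to 11.95 of the others. Cdk13 was at 9.34 in Padi6-mutant embryo 3, below the 10.37 to 11.16 of the others. Cdk14 was at 7.99 in Padi6-mutant embryo 6, below the 10.50 to 12.76 of the others. Cdk20 was at 2.81 in Control embryo 9, below the 6.27 to 8.41 of the others. Ccnl2 was at 11.25 in Control embryo 9, below the 11.74 to 12.30 of the others. Cdk17 was at 8.23 in Control embryo 7, below the 9.41 to 10.72 of the others. Ccng2 was at 1.00 in Control embryo 7, below the 4.58 to 7.97 of the others, and of these 9 it is the single case in a gene that passed the test.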

How the results depend on the processing

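Of the 40 genes, the main comparison had 3 higher and 6 lower and the 14173 genes 3765 calls. With library quality weights 6 were higher and 9 lower, with Ccnc, Ccnb2 and Cdk1 gained as higher and Cdk4, Ccne1 and Ccnl2 as lower. With the detected gene number as a covariate 1 was higher and 1 lower, with 1807 calls over all genes, and without the 4 Padi6-mutant embryos that had more than 400 genes at 0 again 1 was higher and 1 lower. Quantile scaling gave 3 higher and 9 lower, and without the trend in limma Ccnd3 missed the threshold (limma adjusted p = 0.0515). Leaving out 1 library gave 3 to 4 higher, 5 to 7 lower and 3035 to 4288 calls over all genes. Among the 11 ratios, 5 passed, 1 with the length and GC trends removed and 1 without the 4 libraries, and 2 to 7 with 1 library left out. The share that would pass among other gene pairs was not computed. With the embryo number as a replicate block, 2528 genes and 3 higher and 6 lower members passed, 8 of the 9 members in common: Cdk19 was lost (-0.81, limma adjusted p = 0.0718) and Ccne1 gained. Same-numbered embryos correlated at -0.0716 to 0.152 after the group means were removed, and 1 of 9 correlated best with its own number. These correlations cannot show whether embryos of the same number shared a litter, day or batch.

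Of the differences that changed sign, that of Birc5 alone had passed the test. With the length and GC trends removed these were Ccnd1 (0.086), Ccnf (0.22), Cdk1 (-0.14), Ccnt1 (0.0036), Ccni (0.11), Ccnb1ip1 (-0.086), Ccnb1-ps (-0.12), Birc5 (-0.016), Ccnq (-0.16), Ccnj (0.27) and the Ccna2 to Ccnb1 ratio (0.047). With the covariate they were Cdk3 (0.94), Ccnf (0.20), Cdk20 (1.17), Ccnt2 (-0.16), Cdk13 (-0.14), Ccnl1 (-0.0040), Cdk10 (0.020), Ccnyl1 (-0.054) and Ccnb1ip1 (-0.060). Without the 4 libraries they were Cdk3 (0.52), Ccnf (0.031), Cdk20 (0.47), Ccnt2 (-0.040) and Cdk17 (0.023). Others were Cdk17 (0.19) and Ccni (0.053) with weights, Ccni (0.017) with median centring, the Ccna2 to Ccnb1 ratio (0.25) with quantile scaling and Cdk3 (0.068) with the block. With 1 library left out the ranges spanned 0 for Ccnd1 (-0.42 to 0.094), Cdk3 (-0.63 to 0.44), Cdk20 (-1.05 to 0.011), Cdk14 (-0.15 to 0.44), Ccni (-0.086 to 0.075), Cdc25a (-0.089 to 0.099), Ccnj (-0.23 to 0.092) and the Ccna2 to Ccnb1 ratio (-0.11 to 0.030). The cause of these changes was not tested. The absolute depth of the libraries is treated as unknown, and what depth limits was not tested.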
